A study of Homo sapiens with 4 samples.

Results

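ACLY, ACACA, FASN, SCD, ELOVL5, ELOVL6, FADS1, FADS2, ACSS2 and THRSP were examined in SKOV3, a long-established line of human ovarian cancer cells, as the genes of fatty acid synthesis and desaturation. They were selected by symbol from a table of 50078 RefSeq transcripts with 19475 gene symbols. All 10 symbols were listed. Each gene was represented by its most abundant transcript, judged by the mean of all 4 libraries, so no difference between groups entered the choice. Values were FPKM, the fragments of a gene scaled to its transcript length and to the tags of the library, a unit that allows levels of different genes to be compared per length.

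Messenger RNA was profiled in 4 libraries. The 2 TCP libraries were labelled as day 0 and came from flat cultures on a tissue culture plate. The 2 polymer X libraries were labelled as day 8 and came from spheroids grown on a plate coated with a polymer thin film. The labels give a single growth protocol with serum replacement for every library, whereas the methods of the study describe maintenance of SKOV3 in serum and spheroid culture in serum replacement with periodic dissociation. Substrate, days in culture and medium therefore cannot be told apart in any difference below. The values had been scaled to 38402000 and 44914000 tags in TCP replicates 1 and 2, and to 40029000 and 40681000 tags in polymer X replicates 1 and 2, as recovered from the steps between low values. Nothing in the labels says that the replicates were separate cultures, so p-values measure only the spread between these libraries, which may be technical.

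Fatty acid synthesis starts from cytosolic acetyl-CoA, which ATP citrate lyase cuts from citrate exported by mitochondria or which acetyl-CoA synthetase makes from free acetate. Acetyl-CoA carboxylase turns acetyl-CoA into malonyl-CoA, and fatty acid synthase extends the chain to palmitate. Elongases then lengthen the chain and desaturases introduce double bonds, stearoyl-CoA desaturase making monounsaturated and the FADS enzymes polyunsaturated acids. Many of these genes are known targets of the SREBP transcription factors, and high lipogenic enzyme levels are a known feature of ovarian cancer cells.

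Markers of the line were examined first. ERBB2, the receptor gene amplified in SKOV3, had 198 and 206 FPKM in TCP replicates 1 and 2 and 913 and 860 FPKM in polymer X replicates 1 and 2. PAX8, a Müllerian lineage factor, had 48.8 and 50.5 FPKM on TCP and 102 and 108 FPKM on polymer X. The simple epithelial keratin KRT8 had 262 and 269 FPKM on TCP and 146 and 143 FPKM on polymer X, and KRT7 and KRT18 were also lower in both polymer X libraries. For KRT18 the log2 fold change of -0.44 ranged from -0.45 to -0.10 over the processing alternatives described below, and limma's adjusted p reached 0.110. KRT18 overlaps a KRT8 transcript and ERBB2 overlaps MIEN1 on the opposite strand. The epithelial genes MUC1 and EPCAM went the other way, MUC1 with 1.71 and 1.79 FPKM on TCP and 15.3 and 16.7 FPKM on polymer X, and EPCAM with 0.168 and 0.104 FPKM on TCP and 1.39 and 1.33 FPKM on polymer X. The ovarian cancer antigen MUC16, the keratin KRT19 and WT1 stayed under 1 FPKM in all 4 libraries. Of 12 markers of adipocytes, hepatocytes, leukocytes and endothelium, 5 were listed at 0 in every library, among them ADIPOQ, LEP, APOA1 and TTR. The 12 markers summed to 17.4 and 17.6 FPKM on TCP and to 44.5 and 47.1 FPKM on polymer X. Nearly all of this was CD68, a lysosomal glycoprotein gene used as a macrophage marker, which had 17.0 and 17.4 FPKM on TCP and 42.3 and 44.9 FPKM on polymer X. The pan-leukocyte gene PTPRC had 0.005 and 0 FPKM on TCP and 0.468 and 0.530 FPKM on polymer X, the endothelial gene PECAM1 had 0 and 0 FPKM on TCP and 0.573 and 0.458 FPKM on polymer X, and the adipocyte gene PLIN1 had 0.244 and 0.178 FPKM on TCP and 0.737 and 0.836 FPKM on polymer X. In bulk libraries, a change in the number of cells of a type and a change in RNA per cell cannot be told apart, and the part of these markers in the results was not tested.

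The family genes did not share 1 direction. ACLY, ACACA, FASN and ELOVL5 were lower on polymer X, whereas SCD and FADS2 were higher. Genes were compared by limma on log2(FPKM + 1). A gene was called when its Benjamini-Hochberg adjusted p was under 0.05 and its absolute log2 fold change was at least 1. The filter, at least 1 FPKM in 2 libraries, left 11964 genes and 9 of the 10 family genes, with THRSP below it. Each of these 9 was above 1 FPKM in all 4 libraries. ELOVL5 was the 1 family gene called lower, against 9.45% of all genes tested, and 0 were called higher, against 10.7% of all genes tested. With the fold minimum set aside, the adjusted p from limma was under 0.05 for 4 family genes that were lower and 3 that were higher, against 43.6% and 37.4% of all genes. The counts by unadjusted p under 0.05 were the same 4 and 3, against 5271 lower and 4536 higher of all 11964 genes. The words rose and fell are used below for the adjusted p alone. Both polymer X libraries were above both TCP libraries for 5 of the 9 genes and below them for 4, against 41.9% and 48.4% of all genes. The family's counts were thus near those shares, and the counts do not set it apart from all genes. Over the 9 genes, log2 fold changes had a median of 0.10, beside -0.06 for all genes, and a range from -1.03 to 0.81.

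**Figure D1:**
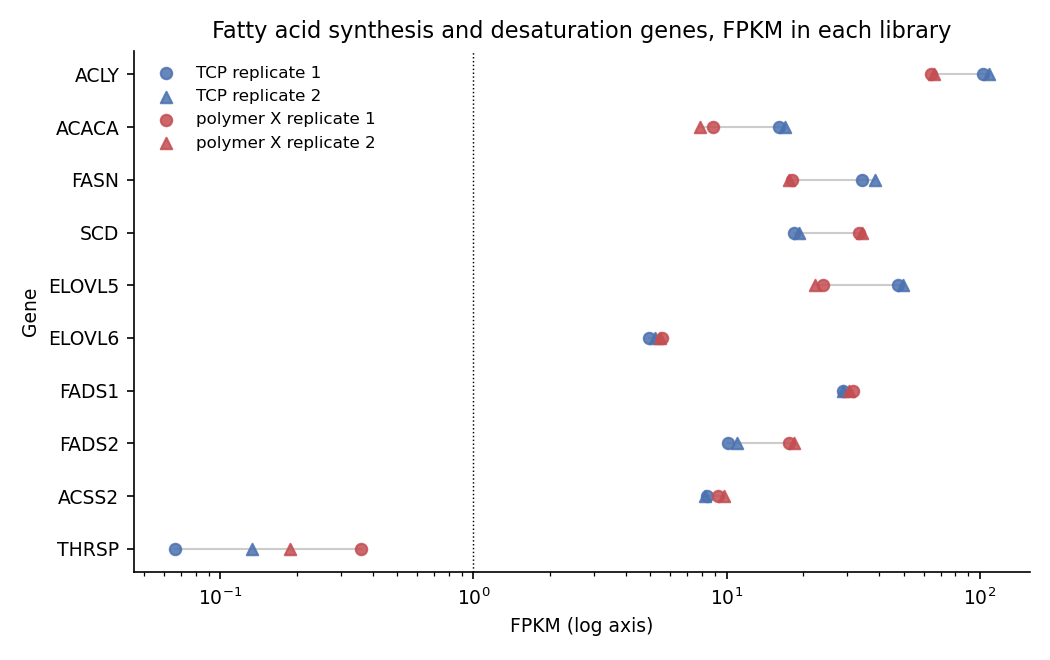
FPKM of each of the 10 genes (log axis) in the 4 libraries, TCP in blue and polymer X in red, with replicate 1 as circles and replicate 2 as triangles; the dotted line marks 1 FPKM. ACLY, ACACA, FASN and ELOVL5 were lower in both polymer X libraries, SCD and FADS2 were higher, and THRSP was under 1 FPKM in all 4.

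The order of the levels differed between the groups. From highest to lowest mean FPKM, the order on TCP was ACLY, ELOVL5, FASN, FADS1, SCD, ACACA, FADS2, ACSS2, ELOVL6 and THRSP, and no neighbours in this order had overlapping libraries. On polymer X the order was ACLY, SCD, FADS1, ELOVL5, FADS2, FASN, ACSS2, ACACA, ELOVL6 and THRSP, in which only FADS2 and FASN had overlapping libraries. SCD thus moved from rank 5 to rank 2, and FASN from rank 3 to rank 6. The lowest value among the 9 tested genes corresponded to 601 tags, for ELOVL6 in TCP replicate 1.

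Supply of cytosolic acetyl-CoA was represented by ACLY and ACSS2. ACLY (NM_198830, chr17:40023179-40075272 in hg19, minus strand), the ATP citrate lyase gene, had 103 and 109 FPKM in TCP replicates 1 and 2 and 64.2 and 65.8 FPKM in polymer X replicates 1 and 2. ACLY was the most abundant family gene in both groups, and its libraries did not overlap between groups. The polymer X mean was 0.613 times the TCP mean. Its log2 fold change was -0.70 (SE 0.06, 95% interval -0.83 to -0.57, n = 2 and 2, limma adjusted p = 2.51e-06), and 18.3% of all genes tested had a change at least as low. With quantile normalization the log2 fold change of ACLY was -0.37. ACSS2 (NM_018677, chr20:33464328-33515769, plus strand), which encodes the cytosolic acetyl-CoA synthetase, had 8.34 and 8.22 FPKM on TCP and 9.26 and 9.74 FPKM on polymer X. ACSS2 was thus slightly higher in both polymer X libraries, by a log2 fold change of 0.18 (SE 0.06, limma adjusted p = 0.0269). This p held in 1 of the 4 runs with a library left out. Over the alternatives limma gave adjusted p values between 0.0111 and 0.123, those above 0.05 coming from leaving out TCP replicate 1 (0.0905), TCP replicate 2 (0.123) or polymer X replicate 2 (0.0986).

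Chain synthesis was represented by ACACA and FASN. ACACA (NM_198836, chr17:35441927-35716059, minus strand), the gene of the rate-limiting acetyl-CoA carboxylase, had 16.1 and 17.0 FPKM on TCP and 8.80 and 7.84 FPKM on polymer X. Both polymer X libraries were below both TCP libraries, and the ACACA mean on polymer X was 0.503 times that on TCP. ACACA fell by 0.91 on the log2 scale (SE 0.07, limma adjusted p = 1.92e-06). FASN (NM_004104, chr17:80036214-80056106, minus strand), the fatty acid synthase gene, had 34.3 and 38.5 FPKM on TCP and 18.2 and 17.6 FPKM on polymer X. The groups did not overlap, and the TCP libraries differed from each other more (SD 2.95) than the polymer X libraries (SD 0.429). FASN fell by 0.98 on the log2 scale (SE 0.07, 95% interval -1.13 to -0.83, limma adjusted p = 8.37e-07), just short of the fold minimum, although the ratio of the mean FPKM was 0.492. FASN was called at -1.02 with a pseudocount of 0.1, at -1.06 without TCP replicate 1 and at -1.01 without polymer X replicate 1. FASN stood farther from the minimum at -0.75 with quantile normalization, -0.90 without TCP replicate 2, -0.94 with libraries scaled to a common median and -0.96 without polymer X replicate 2. THRSP (NM_003251, chr11:77774907-77779403, plus strand), a regulator of lipogenesis induced by thyroid hormone in liver and fat, had 0.066 and 0.133 FPKM on TCP and 0.361 and 0.188 FPKM on polymer X. These correspond to 3 and 7 tags on TCP and to 17 and 9 tags on polymer X, and no fold change is given for so few tags. The gene also lies within the span of NDUFC2-KCTD14 on the opposite strand, and tags were counted without strand.

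Elongation was represented by ELOVL5 and ELOVL6, which act on different substrates. ELOVL5 (NM_021814, chr6:53132196-53213977, minus strand), the elongase of polyunsaturated acids, had 47.4 and 49.7 FPKM on TCP and 24.1 and 22.3 FPKM on polymer X. Both polymer X libraries were below both TCP libraries, and the polymer X mean was 0.478 times the TCP mean. ELOVL5 was called lower, with a log2 fold change of -1.03 (SE 0.06, 95% interval -1.17 to -0.90, limma adjusted p = 3.20e-07), and 8.89% of all genes tested had a change at least as low. The call rested on a narrow margin, since the log2 fold change was -0.98 without polymer X replicate 2, -0.99 with libraries scaled to a common median and -0.77 with quantile normalization. ELOVL6 (NM_001130721, chr4:110970229-111119771, minus strand), which extends palmitate to stearate, had 4.92 and 5.20 FPKM on TCP and 5.57 and 5.46 FPKM on polymer X. Its log2 fold change of 0.10 had a 95% interval from -0.05 to 0.26 and did not pass limma's test (adjusted p = 0.185).

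Desaturation was represented by SCD, FADS1 and FADS2. SCD (NM_005063, chr10:102106772-102124588, plus strand), the delta-9 desaturase gene that yields oleate and palmitoleate, had 18.4 and 19.3 FPKM on TCP and 33.5 and 34.3 FPKM on polymer X. Both polymer X libraries were above both TCP libraries, by 1.79 times in the mean. SCD rose by 0.81 on the log2 scale (SE 0.06, 95% interval 0.68 to 0.94, limma adjusted p = 1.00e-06), and 14.7% of all genes tested had a change at least as high. With quantile normalization SCD was called higher at 1.05. FADS2 (NM_001281502, chr11:61583876-61634826, plus strand), the delta-6 desaturase gene, had 10.1 and 10.9 FPKM on TCP and 17.6 and 18.4 FPKM on polymer X. The groups did not overlap, and FADS2 rose by 0.72 (SE 0.06, limma adjusted p = 4.87e-06). FADS1 (NM_013402, chr11:61567097-61584529, minus strand), the delta-5 desaturase gene beside it, had 28.9 and 28.8 FPKM on TCP and 31.6 and 30.5 FPKM on polymer X. Its log2 fold change was 0.10 (SE 0.05, 95% interval -0.02 to 0.23), and limma's adjusted p was 0.108. That p ranged from 0.000155 to 0.285 over the alternatives, and was under 0.05 with quantile normalization (0.000155, log2 fold change 0.36), with libraries scaled to a common median (0.0211) and with no filter (0.0498).

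**Figure D2:**
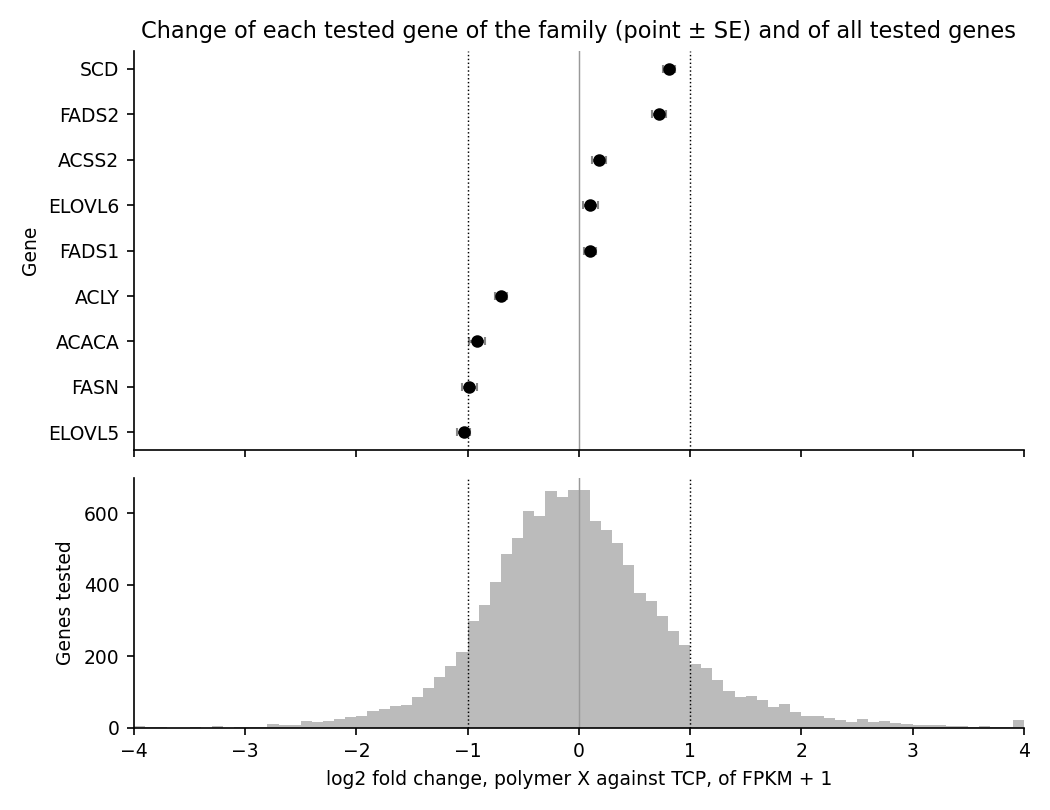
Upper panel, log2 fold change of FPKM + 1 on polymer X against TCP for the 9 tested genes (points, with bars of 1 SE); lower panel, the same quantity for all 11964 genes tested in bins of 0.1, values beyond 4 in the outermost bins. Dotted lines mark the fold minimum, which ELOVL5 alone passed at -1.03 while FASN stood at -0.98.

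FADS1 and FADS2 share sequence at their starts. The span of FADS2 transcript NM_001281502 overlaps that of FADS1 by 654 bases on the opposite strand, and that of NM_001281501 by 855 bases. Tags were counted on both strands, so tags from these overlaps cannot be assigned to either gene. The third FADS2 transcript, NM_004265 (chr11:61595505-61634826), starts clear of FADS1. NM_004265 had 7.85 and 8.86 FPKM on TCP and 15.5 and 16.2 FPKM on polymer X, so that the transcript without the overlap showed the same direction. With NM_004265 as the FADS2 transcript, an alternative chosen after the data were seen, the log2 fold change of FADS2 was 0.85 in place of 0.72.

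Transcripts of a gene with overlapping spans can share tags, so their agreement is not independent evidence, and their values are given as a description. From each transcript's group means, the log2 ratio of FPKM + 1 was -0.70 for each of the 4 ACLY transcripts and ranged from -0.91 to -0.88 over the 5 ACACA transcripts. Over the 5 ELOVL5 transcripts the ratio ranged from -1.03 to -0.96, the short NM_001242831 giving the smallest fall. The ratio ranged from 0.72 to 0.85 over 3 FADS2 transcripts, from 0.18 to 0.20 over 3 ACSS2 transcripts and from 0.10 to 0.13 over 2 ELOVL6 transcripts. FASN, SCD, FADS1 and THRSP had 1 transcript each.

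Ratios within a library do not depend on a single scaling factor per library. Quantile normalization moves genes of the same library by different amounts and was not applied to these ratios. The following pairs and sums were chosen after the values were seen and are given as descriptions. SCD had 0.536 and 0.502 times the FPKM of FASN in TCP replicates 1 and 2 and 1.84 and 1.95 times the FPKM of FASN in polymer X replicates 1 and 2. FASN thus exceeded SCD in both TCP libraries, and SCD exceeded FASN in both polymer X libraries. The ratio of FADS2 to FADS1 was 0.351 and 0.379 on TCP and 0.557 and 0.604 on polymer X. The ratio of ELOVL5 to ELOVL6 was 9.65 and 9.56 on TCP and 4.33 and 4.08 on polymer X. The ratio of ACLY to ACSS2 was 12.4 and 13.2 on TCP and 6.93 and 6.75 on polymer X. In each of these 4 pairs the groups did not overlap. FASN to ACACA differed from them, with 2.13 and 2.27 on TCP and 2.07 and 2.25 on polymer X, so that both genes of chain synthesis kept their proportion within the spread of the libraries. The FPKM of ACLY, ACACA and FASN summed to 154 and 164 on TCP and to 91.2 and 91.2 on polymer X. The FPKM of SCD, FADS1 and FADS2 summed to 57.4 and 59.1 on TCP and to 82.7 and 83.2 on polymer X. The desaturase sum was thus 0.373 and 0.360 of the synthesis sum on TCP and 0.907 and 0.912 of it on polymer X. A two-sided exact permutation test of 2 against 2 libraries cannot give less than p = 0.333, the value each of these comparisons had except FASN to ACACA (exact permutation p = 0.667).

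**Figure D3:**
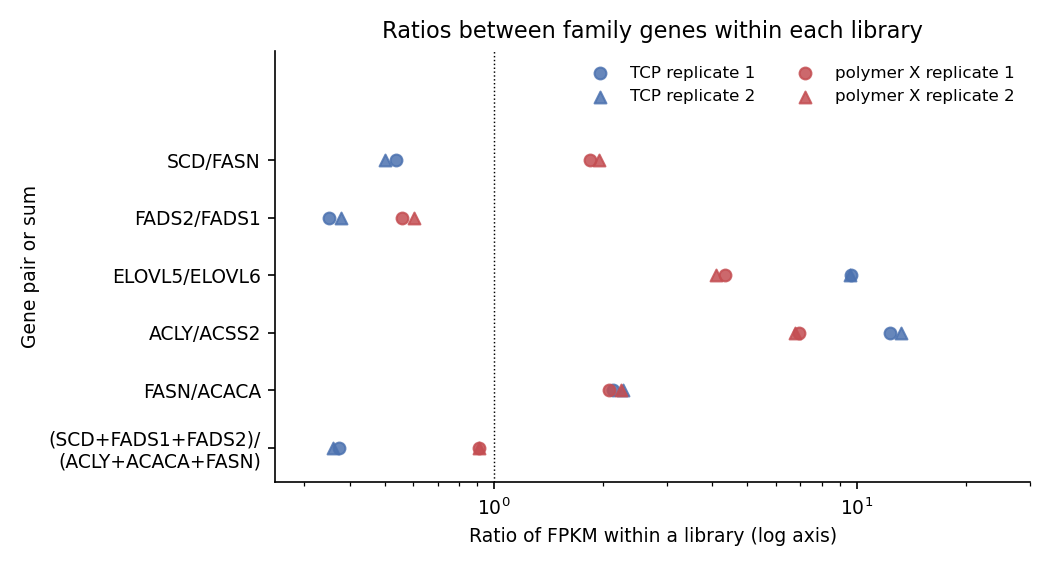
Ratio of the FPKM of 2 family genes, or of 2 sums, within each library (log axis), TCP in blue and polymer X in red; the dotted line marks equal levels. SCD passed from 0.502 to 0.536 of FASN on TCP to 1.84 to 1.95 on polymer X, while the ratio of FASN to ACACA overlapped between the groups.

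Promoter sequences were compared because several family genes shared a direction. RefSeq windows of 300 bases around gene starts (build GRCh38.p14) were found for 9 of the 10 genes, with 14 windows in all, and FASN had no entry. Searched on both strands were TCACNCCAC, a core of the sterol regulatory element, the E-box CACGTG, the NF-Y box CCAAT and the GC box GGGCGG. None of these overlapped another in the windows shown. TCACNCCAC was in none of the 14 windows and in 1.13% of all 35116 windows. CACGTG was in 1 of the 14, that of ELOVL5, against 7.26% of all windows. CCAAT was in 9 of the 14, from 7 genes, against 34.6% of all windows. GGGCGG was in 10 of the 14, also from 7 genes, against 45.0% of all. The windows of ACLY overlap each other, as do those of FADS2, so the 14 are not all separate sequences. The same ACLY boxes were counted in each ACLY window. The genes with CCAAT were ACLY, ACACA and ELOVL5, which fell, SCD, FADS2 and ACSS2, which rose, and THRSP, so the box was present in genes of either direction. A match describes the letters and not a bound site.

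Shown are the windows of ACLY and ELOVL5, which fell, and of SCD, FADS1 and FADS2, the desaturases. Capitals mark the motifs on either strand, the reverse complements of CCAAT and GGGCGG reading ATTGG and CCGCCC. ACLY and FADS2 have 2 windows each, of which 1 is shown. The windows are ACLY at chr17:41918902-41919201 on the minus strand, ELOVL5 at chr6:53348901-53349200 on the minus strand, SCD at chr10:100346983-100347282 on the plus strand, FADS1 at chr11:61816954-61817253 on the minus strand and FADS2 at chr11:61816154-61816453 on the plus strand.
ACLY: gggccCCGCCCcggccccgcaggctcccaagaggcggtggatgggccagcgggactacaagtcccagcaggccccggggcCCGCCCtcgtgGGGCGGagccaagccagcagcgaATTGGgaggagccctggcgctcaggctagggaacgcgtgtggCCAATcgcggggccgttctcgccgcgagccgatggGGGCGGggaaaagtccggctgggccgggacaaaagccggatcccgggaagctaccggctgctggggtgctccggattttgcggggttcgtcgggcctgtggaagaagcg
ELOVL5: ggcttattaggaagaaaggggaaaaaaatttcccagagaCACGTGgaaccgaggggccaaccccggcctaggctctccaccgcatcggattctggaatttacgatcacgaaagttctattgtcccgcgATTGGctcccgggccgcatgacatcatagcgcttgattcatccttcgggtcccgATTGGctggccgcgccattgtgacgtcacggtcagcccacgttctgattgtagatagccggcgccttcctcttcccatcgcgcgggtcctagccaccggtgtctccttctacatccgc
SCD: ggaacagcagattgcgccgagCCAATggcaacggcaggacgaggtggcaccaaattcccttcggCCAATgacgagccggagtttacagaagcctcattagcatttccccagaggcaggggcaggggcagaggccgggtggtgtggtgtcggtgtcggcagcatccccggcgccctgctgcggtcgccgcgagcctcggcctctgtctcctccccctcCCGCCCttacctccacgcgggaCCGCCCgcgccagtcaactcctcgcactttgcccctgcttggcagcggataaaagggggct
FADS1: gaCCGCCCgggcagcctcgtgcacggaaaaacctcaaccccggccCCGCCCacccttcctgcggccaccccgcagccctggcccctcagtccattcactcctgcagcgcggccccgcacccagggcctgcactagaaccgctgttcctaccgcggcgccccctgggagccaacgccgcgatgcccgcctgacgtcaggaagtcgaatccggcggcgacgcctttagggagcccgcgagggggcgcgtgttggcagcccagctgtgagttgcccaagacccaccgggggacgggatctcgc
FADS2: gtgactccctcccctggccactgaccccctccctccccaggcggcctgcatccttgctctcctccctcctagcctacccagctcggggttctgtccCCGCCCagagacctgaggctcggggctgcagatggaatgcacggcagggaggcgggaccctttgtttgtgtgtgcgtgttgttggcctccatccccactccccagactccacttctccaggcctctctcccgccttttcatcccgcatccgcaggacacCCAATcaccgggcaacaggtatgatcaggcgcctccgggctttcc
The ELOVL5 window had its E-box from base -211 to -206 relative to the start and CCAAT boxes on the reverse strand from -122 and from -68. SCD had both of its CCAAT boxes on the forward strand, from -229 and from -186. ACLY had 2 CCAAT boxes and 4 GC boxes, whereas FADS1 had 2 GC boxes and no CCAAT. The FADS2 start of this window lies 599 bases inside FADS1, as counted from the FADS1 start, and its CCAAT box follows the start.

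The transcriptional regulators of lipogenesis included genes that rose further than any enzyme of the family. Of 18 genes in the list, 17 were tested, 4 were called higher and 0 were called lower by limma, beside 10.7% and 9.45% of all genes tested. The adjusted p from limma alone was under 0.05 for 10 higher and 5 lower, beside 37.4% and 43.6% of all genes. The unadjusted p gave the same counts for these regulators. Their median log2 fold change was 0.23, beside -0.06 for all genes. The median was 0.40 with quantile normalization and 0.14 with a mean of at least 5 FPKM required, and 2 genes were called under either. INSIG2, which with INSIG1 holds the SREBP escort SCAP in the endoplasmic reticulum, had 6.46 and 6.09 FPKM on TCP and 33.2 and 35.8 FPKM on polymer X (log2 fold change 2.29, SE 0.06, limma adjusted p = 4.55e-09). INSIG1, itself a known SREBP target, had 8.68 and 8.32 FPKM on TCP and 24.6 and 28.4 FPKM on polymer X (log2 fold change 1.53, SE 0.08, limma adjusted p = 1.05e-07). Both INSIG genes were thus higher in each polymer X library, with no overlap. SREBF1, the gene of the SREBP that drives fatty acid synthesis, had 2.93 and 2.88 FPKM on TCP and 6.62 and 7.10 FPKM on polymer X. Its log2 fold change was 1.01 (SE 0.07, limma adjusted p = 1.08e-06). The change was under the fold minimum without TCP replicate 2 (0.9998), without polymer X replicate 2 (0.96) and with quantile normalization (0.91). Over the 3 SREBF1 transcripts the log2 ratio of FPKM + 1 from group means ranged from 0.94 to 1.01, and only the chosen transcript reached the minimum. MLXIPL, the gene of the carbohydrate response factor ChREBP, had 0.033 and 0.097 FPKM on TCP and 1.33 and 1.17 FPKM on polymer X, and passed the filter only through polymer X, so its call (log2 fold change 1.08, or 3.06 with a pseudocount of 0.1 and 0.56 with quantile normalization) carries little weight. SREBF2, the gene of the SREBP of sterol synthesis, rose by 0.70 (SE 0.05, limma adjusted p = 2.04e-06), and the liver X receptor gene NR1H3 rose by 0.53 (SE 0.09, limma adjusted p = 0.000577). SCAP had 11.7 and 11.8 FPKM on TCP and 12.5 and 12.0 FPKM on polymer X, a difference that did not pass limma's test (log2 fold change 0.05, SE 0.06, adjusted p = 0.465). For SCAP that p from limma ranged from 0.0340 to 0.790 over the alternatives, the lowest with quantile normalization, where the log2 fold change was 0.15. The direction of SREBF1 was thus shared by SCD, FADS2 and, with a small change of 0.18, ACSS2. It was opposite to that of ACLY, ACACA, FASN and ELOVL5, while ELOVL6 and FADS1 did not pass limma's test. A link between SREBF1 and these genes was not tested. NR1H3 overlaps ACP2 on the opposite strand, and its value is uncertain for that reason.

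Genes for the supply of citrate, acetyl-CoA and NADPH were examined as a list. Of 12 genes, 11 were tested, 1 was called lower and 0 were called higher by limma, beside 9.45% and 10.7% of all genes tested. The adjusted p from limma alone was under 0.05 for 7 that were lower and 0 that were higher, beside 43.6% and 37.4% of all genes. The unadjusted p gave the same 7 and 0. The list's median log2 fold change was -0.31, and was -0.14 without polymer X replicate 2 and -0.47 without polymer X replicate 1. CS, the citrate synthase gene, had 84.0 and 86.5 FPKM on TCP and 36.3 and 32.6 FPKM on polymer X. This was a log2 fold change of -1.29 (SE 0.06, limma adjusted p = 1.13e-07), the largest fall in the list, and -0.97 with quantile normalization. Among genes named after their values were seen, the pyruvate dehydrogenase subunits DLAT and PDHA1 fell by 0.86 and by 0.81, and malic enzyme ME1, a source of NADPH, fell by 0.78. PDHB, of the same complex, and IDH1, another source of NADPH, had log2 fold changes of -0.08 each and did not pass limma's test (adjusted p = 0.249 and 0.251). SLC25A1, the mitochondrial citrate exporter, had 57.6 and 57.3 FPKM on TCP and 56.4 and 53.4 FPKM on polymer X, with a log2 fold change of -0.07 (limma adjusted p = 0.298) that turned to 0.25 with quantile normalization. For SLC25A1 limma's adjusted p ranged from 0.00148 to 0.680 over the alternatives, the lowest with quantile normalization, where the gene passed the test in the opposite direction. DLAT overlaps PIH1D2 and PDHA1 overlaps MAP3K15 on the opposite strand.

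Control genes of acetyl-CoA carboxylase, which include the AMP-activated kinase subunits, did not reach the fold minimum in either direction. Thus 0 were called, beside 10.7% of all genes tested called higher and 9.45% called lower. All 10 were tested, and limma's adjusted p alone was under 0.05 for 3 that were higher and 4 that were lower, beside 37.4% and 43.6% of all genes. The unadjusted p gave the same counts for these control genes. Their median of -0.11 was -0.17 without TCP replicate 1, -0.05 without TCP replicate 2, -0.01 with quantile normalization and -0.21 with a mean of at least 5 FPKM required. ACACB, the gene of the carboxylase isoform at mitochondria, had 1.36 and 1.83 FPKM on TCP and 2.66 and 3.00 FPKM on polymer X. ACACB rose by 0.57 (SE 0.10, limma adjusted p = 0.000624), opposite to ACACA, at a level far below it. The log2 fold change of ACACB was 0.30 with quantile normalization, and limma's adjusted p ranged from 1.10e-06 to 0.0513 over the alternatives, the highest with no filter. MID1IP1, a partner of THRSP that promotes carboxylase assembly, had 12.3 and 12.1 FPKM on TCP and 13.4 and 12.7 FPKM on polymer X, which did not pass limma's test (adjusted p = 0.198). For MID1IP1 that p ranged from 0.00854 to 0.456 over the alternatives, and only quantile normalization, with a log2 fold change of 0.21, brought it under 0.05.

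Elongation and desaturation genes outside the family were examined as 2 further lists. Of 11 other elongation genes, 10 were tested and 0 were called in either direction by limma, beside 9.45% of all genes called lower and 10.7% called higher. The adjusted p alone was under 0.05 for 5 lower and 2 higher, beside 43.6% and 37.4% of all genes. The unadjusted p was under 0.05 for 6 lower and 2 higher, beside 5271 lower and 4536 higher of all 11964 genes tested. The list's median was -0.29 (-0.14 with quantile normalization and -0.48 with a mean of at least 5 FPKM required). ELOVL1, an elongase of saturated chains, had 60.0 and 56.5 FPKM on TCP and 30.8 and 30.5 FPKM on polymer X, and fell by 0.90. The dehydratase gene HACD2 fell by 0.82 and the polyunsaturated acid elongase gene ELOVL2 by 0.72, these 3 genes being named after their values were seen. Of 10 other desaturases and electron donors, 7 were tested and 0 were called by limma, beside 10.7% of all genes called higher and 9.45% called lower. The adjusted p alone was under 0.05 for 4 higher and 0 lower, beside the same 37.4% and 43.6%, and the unadjusted p gave the same 4 and 0. The median of these 7 genes was 0.22 (0.34 with quantile normalization). FADS3, which neighbours FADS2 and FADS1 in their gene cluster, had 45.8 and 47.6 FPKM on TCP and 77.0 and 86.8 FPKM on polymer X. FADS3 rose by 0.79 (SE 0.07, limma adjusted p = 3.58e-06), or by 1.11 with quantile normalization, where it was called. SCD5, the second human stearoyl-CoA desaturase, had 9.90 and 10.4 FPKM on TCP and 12.3 and 11.7 FPKM on polymer X (log2 fold change 0.22, SE 0.06, limma adjusted p = 0.00941), a smaller change than that of SCD. For SCD5 limma's adjusted p ranged from 0.00117 to 0.0924 over the alternatives, and was above 0.05 without TCP replicate 1 (0.0828) and with the sum over transcripts (0.0924).

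**Figure D4:**
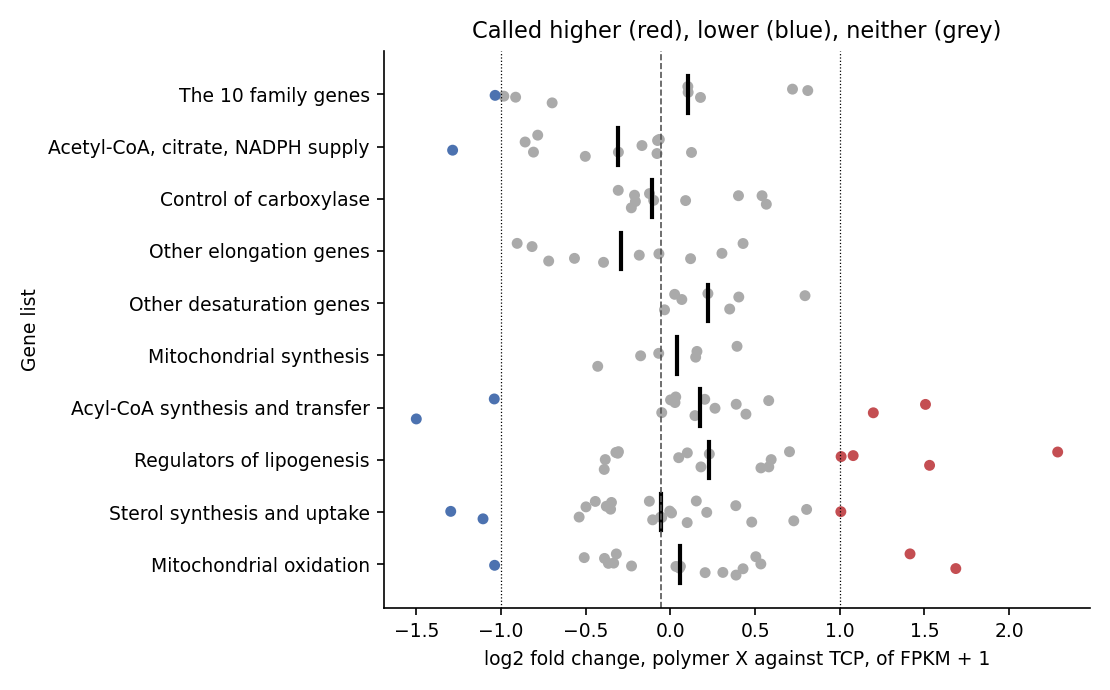
log2 fold change of FPKM + 1 on polymer X against TCP for the tested genes of 10 lists (points, spread vertically at random), with each list's median as a black bar, the median of all genes (-0.06) as a dashed line and the fold minimum as dotted lines. Regulators reached the highest value, 2.29 for INSIG2. The lowest value was -1.50 for GPAM, of the acyl-CoA synthetases and glycerolipid transferases, and the supply genes reached -1.29 for CS.

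Mitochondrial fatty acid synthesis, a separate pathway that makes the lipoic acid precursor, had 6 of 7 genes tested and 0 called by limma, beside 10.7% of all genes called higher and 9.45% called lower. The adjusted p alone was under 0.05 for 1 higher and 2 lower, beside 37.4% and 43.6% of all genes, and the unadjusted p gave the same 1 and 2. The median of 0.04 had no stable sign, ranging from -0.03 to 0.11 with 1 library left out and being -0.06 with quantile normalization and -0.18 with a mean of at least 5 FPKM required. Acyl-CoA synthetases and glycerolipid transferases had 14 of 15 genes tested, 2 called higher and 2 called lower, beside 10.7% and 9.45% of all genes. The adjusted p from limma alone was under 0.05 for 8 higher and 2 lower, beside 37.4% and 43.6%, with a median of 0.17 (0.33 with quantile normalization). With a mean of at least 5 FPKM required, 1 gene was called higher and 1 was called lower. The phosphatidate phosphatase gene LPIN3 had 3.91 and 4.75 FPKM on TCP and 12.7 and 15.7 FPKM on polymer X (log2 fold change 1.51, limma adjusted p = 1.08e-06). The acyl-CoA synthetase gene ACSL5 was at 0.188 and 0.201 FPKM on TCP and at 1.75 and 1.73 FPKM on polymer X. ACSL5 passed the filter only through polymer X, so its call carries little weight. The log2 fold change of ACSL5 was 1.20. It was 0.68 with quantile normalization, 1.95 with the sum over transcripts and 2.64 with a pseudocount of 0.1. GPAM, the gene of the mitochondrial acyltransferase that starts glycerolipid synthesis, had 5.12 and 5.39 FPKM on TCP and 1.25 and 1.17 FPKM on polymer X (log2 fold change -1.50, limma adjusted p = 1.18e-07). GPAM thus moved with the synthesis genes and against SCD. The synthetase gene ACSL3 was called lower at -1.04, a call lost without polymer X replicate 2 (-0.99), with the common median and with quantile normalization (-0.87). LPIN3 overlaps EMILIN3 on the opposite strand.

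Sterol synthesis and uptake genes, which are targets of the other SREBP, had no common direction. Of 23 genes, 22 were tested, 1 was called higher and 2 were called lower by limma, beside 10.7% and 9.45% of all genes, with the adjusted p alone under 0.05 for 7 higher and 8 lower, beside 37.4% and 43.6%, and a median of -0.05, close to that of all genes. With quantile normalization the list's median was 0.18 and none of these 3 calls was kept. ACAT2, the cytosolic thiolase gene at the start of the pathway, was called lower at -1.11, and it overlaps the genes TCP1 and SOD2 on the opposite strand. TM7SF2, a sterol reductase gene, was called higher at 1.01 (SE 0.13), and the call was lost at 0.92 without TCP replicate 1 and at 0.80 without polymer X replicate 1.

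Mitochondrial fatty acid oxidation, which breaks down what the family makes, had 18 of 20 genes tested, with 2 called higher and 1 called lower, beside 10.7% and 9.45% of all genes. The adjusted p from limma alone was under 0.05 for 8 higher and 7 lower, beside 37.4% and 43.6%, with a median of 0.06, which was -0.01 without polymer X replicate 1 and 0.14 without polymer X replicate 2. ACADVL, the very long chain acyl-CoA dehydrogenase gene, had 84.7 and 83.6 FPKM on TCP and 264 and 282 FPKM on polymer X (log2 fold change 1.69, limma adjusted p = 1.27e-08). CPT1B, a carnitine palmitoyltransferase gene, was called higher at 1.41, while CPT1A, named after its values were seen, rose by 0.53. ETFA, the electron transfer flavoprotein subunit, was called lower at -1.04, a call lost at -0.99 without TCP replicate 1, at -0.97 without polymer X replicate 2, at -0.70 with quantile normalization and, by a small margin, with the common median. ACADVL overlaps DLG4 on the opposite strand.

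The genes nearest to ELOVL5, the family gene with the largest absolute log2 fold change, were CALU, PRPF8 and EIF2S2, at Euclidean distances of 0.04, 0.06 and 0.11 over the 4 values of log2(FPKM + 1). CALU had 47.5 and 48.7 FPKM on TCP and 24.7 and 22.4 FPKM on polymer X, PRPF8 had 48.6 and 51.3 FPKM and 23.6 and 22.3 FPKM, and EIF2S2 had 50.8 and 48.8 FPKM and 24.4 and 23.2 FPKM. CALU overlaps OPN1SW on the opposite strand.

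**Figure D5:**
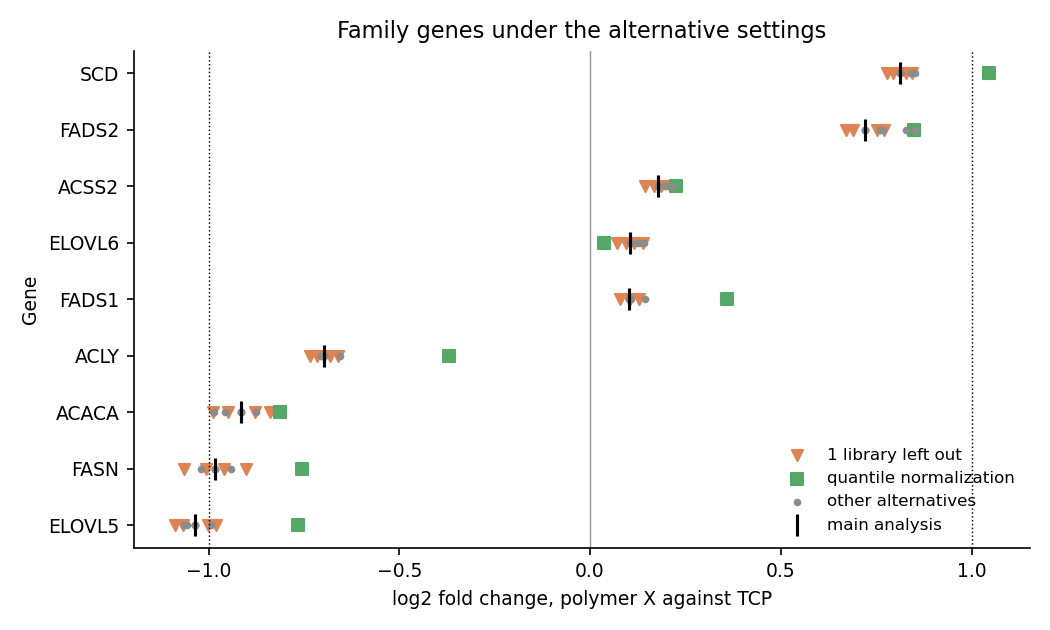
log2 fold change of the 9 tested genes on polymer X against TCP in the main analysis (black bars), with 1 library left out (orange triangles), with quantile normalization (green squares) and under the other alternatives (grey points). No gene changed direction, and quantile normalization moved the abundant genes upwards, ACLY from -0.70 to -0.37 and SCD from 0.81 to 1.05.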

How the data were processed

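Per the labels, messenger RNA of SKOV3 was sequenced in 4 libraries, 2 from TCP and 2 from polymer X. The submitters' processing notes name STAR 2.4.0, HOMER and DESeq with the hg19 build. The authors deposited FPKM per RefSeq transcript, and the file header gives HOMER exon counting on both strands. DESeq results of the authors were not used here. Coordinates of transcripts are hg19, and promoter windows are RefSeq GRCh38.p14.

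Genes were tested on the deposited FPKM as log2(FPKM + 1) with limma 3.58.1 (R 4.3.3), allowing for a mean-variance trend, and Benjamini-Hochberg adjustment over all genes that had at least 1 FPKM in 2 libraries. The procedure was tested on simulated data in which few genes were changed. Their changes were set above the fold minimum, so calls near that minimum were not examined there. Replicates of a group differed by more than counting noise (mean chi-square per gene 5.10 for TCP and 5.82 for polymer X), so none was treated as a repeat deposit. Tag totals were taken as those at which low values fell within 0.1 of whole tags. Intervals of tag numbers would cover counting error only.

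The members and gene lists were chosen with earlier results of these data known. Beyond the family, genes were named by rule: up to 4 called genes per list and direction, 10 regulators and isoforms whatever their values, and the 3 genes nearest to the family gene with the largest change. A gene that this rule selects is not reported here. Alternatives were the pseudocount, filter, scaling, replicate block, sum over transcripts, trend, fold minimum and each library left out.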

Additional observations from a re-analysis of the deposited data

How the results depend on the processing

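Over all genes, 1285 were called higher and 1131 lower. Leaving out each library in turn gave 1289 to 1325 higher and 1053 to 1234 lower, the lone library then being assumed to vary like the other group. A mean of at least 5 FPKM gave 702 higher and 960 lower, so that 42.2% of the calls were higher in place of 53.2%, and the cause was not tested. Without the fold minimum, 4477 were higher and 5212 lower, and a fold minimum of 2 on the log2 scale left 281 and 150.

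The family count of 1 lower and 0 higher was less stable, ELOVL5 and FASN lying near the fold minimum. The lower count was 2 with a pseudocount of 0.1, 0 with quantile normalization, 0 with the common median, 4 without the fold minimum and 0 with a log2 minimum of 2, and it ranged from 0 to 2 with 1 library left out. The higher count was 1 with quantile normalization (SCD), 3 without the fold minimum and 0 in each run with 1 library left out. The family median of 0.10 was 0.037 with quantile normalization and 0.14 with the common median, and ranged from 0.07 to 0.12 with 1 library left out. The cause of the shift under quantile normalization was not tested.

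Of 109 alternative values for single family genes, 102 kept direction and call, 3 lost a call, 4 gained a call and 0 changed direction. Over 47 genes followed through these alternatives, 524 of 558 values kept direction and call, 28 lost a call and 5 gained a call. The direction changed in 1, SLC25A1 at 0.25 with quantile normalization. The replicate numbers were shared by both groups, but with 2 pairs and a correlation of 0.09 between the deviations of same-numbered libraries they were not taken as a pairing. The replicate block left every one of these counts as it was (1285, 1131, 1 and 0), with a family median of 0.10. With 2 libraries a group, no permutation over libraries can reach a p under 0.333, and of the family genes THRSP alone had few tags, at 3 to 17. MLXIPL with 4 and 14 tags and ACSL5 with 24 and 30 tags were also low on TCP.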
